A study of Mus musculus with 26 samples.

Results

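The m6A readers are proteins that recognise N6-methyladenosine (m6A), the methyl mark that the METTL3 enzyme complex places on mRNA, and 9 reader genes were followed here through muscle regeneration and myoblast differentiation. They are Ythdf1, Ythdf2, Ythdf3, Ythdc1, Ythdc2, Igf2bp1, Igf2bp2, Igf2bp3 and Hnrnpa2b1. Their rows were found by gene symbol, and each occurs once among the 53465 genes of the regeneration table and once among the 55487 genes of the C2C12 table. Tibialis anterior (TA) muscle of adult male C57BL/6J mice was sequenced on day 0 and on days 1, 3, 5 and 10 after an injection of cardiotoxin (CTX), which comes from cobra venom and kills the fibres, with 2 libraries per day. Day 0 is the label's term, and the methods name a saline control, so whether that muscle was untouched or given saline is not settled. C2C12, a mouse myoblast line, was sequenced while growing (growth medium, GM) and after it had spent until the third day in differentiation medium (DM3), with 2 libraries per group. The Cas9M3 cells are stable, puromycin-selected lines in which the hUbC promoter drives dCas9-KRAB, a Cas9 that cannot cut fused to a repressor, guided to the Mettl3 promoter. The design text of the series speaks of knockout derivatives of wildtype cells where differentiation ran to the third day, whereas the methods describe this repression without a cut. Cells labelled CTRL served as controls, and what construct they carry is not given in the sources used here. Nothing states that the libraries of a group came from separate mice or cultures, so p-values measure the spread between these libraries, which may be technical.

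The 3 YTHDF proteins and YTHDC1 and YTHDC2 share the YTH domain, a pocket that binds the methylated base. YTHDF proteins act in the cytoplasm, where YTHDF2 brings the CCR4-NOT deadenylase to its targets and shortens their life and YTHDF1 is known for promoting translation. YTHDC1 works in the nucleus on splicing and export, and YTHDC2 is an RNA helicase best known from meiosis. IGF2BP proteins have no YTH domain; they bind through KH domains and are known for stabilising their mRNAs, IGF2BP1 and IGF2BP3 mainly in the fetus and IGF2BP2 in adult tissues too. HNRNPA2B1 is an abundant nuclear hnRNP that binds nascent transcripts and has been linked to the processing of primary miRNAs.

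The readers differ in a sequence feature that bears on the IGF2BP genes: a match to the seed of let-7, a miRNA family of differentiated tissues known to repress growth-related mRNAs. Of the 10 mature let-7 names in the mouse entries of RefSeq, 9 share the seed shown in capitals (bases 2 to 8) in the following family member.
mmu-let-7a-5p: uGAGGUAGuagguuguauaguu
The complementary 7 letters, CTACCTC, were searched on the transcript strand in the longest annotated 3'UTR of each reader (GENCODE M21, GRCm38). All 3 IGF2BP genes hold a match and the other 6 readers hold none, while 9.03% of the 3'UTRs of 21014 genes hold at least 1. The sites of Igf2bp2 and Igf2bp3 and the first of the 4 sites of Igf2bp1 are printed. Site 4 of Igf2bp1, not printed, is followed by a T. Capitals mark the match, and the next base is an A in all 3 printed sites.
Igf2bp2 site: cacacaaataaaagCTACCTCag
Igf2bp3 site: gcatttttactcaaCTACCTCag
Igf2bp1 site: ctgtgcgaagtaaaCTACCTCaa
These lie in the last exon on the minus strand, at chr16:22059472-22059494 for Igf2bp2, chr6:49086786-49086808 for Igf2bp3 and chr11:95961777-95961799 for Igf2bp1. Long 3'UTRs hold more matches by length alone: among 3'UTRs within 10% of the length of the Igf2bp2 3'UTR (1784 bases), 11.3% hold a match, against 14.3% for Igf2bp3 (2119 bases) and 35.8% for Igf2bp1 (6337 bases). Mature miRNAs were not measured in these libraries, and a match is a description of the sequence only.

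Levels are given in FPKM as the authors deposited them, that is, fragments per unit of exon length, adjusted for the size of the library. The low values of each library step by the value of 1 read, and from these steps the libraries held 14170000 to 18820000 reads on genes in the regeneration table and 14230000 to 29570000 in the C2C12 table. The labelled muscle matched its markers: the summed FPKM of 8 muscle fibre genes was 52798 to 55116 on day 0 and 14613 to 16844 on day 3, and that of 7 macrophage genes was 48.8 to 98.6 and 1578 to 1617. The differentiation genes of muscle (6 genes) summed to 5.67 to 21.3 FPKM in CTRL-GM cells and to 308 to 349.7 in CTRL-DM3 cells. In Cas9M3 cells they summed to 0.971 to 27.0 in GM and to 6.69 to 9.35 on DM3. By these markers the Cas9M3-DM3 libraries did not lie above Cas9M3-GM, and they lay below CTRL-DM3. The paper, by contrast, reports that knockdown cells exceeded control cells after induction, in MyHC protein by immunoblot and in fusion genes by RT-qPCR. Those are other measures than the RNA sums given here. Xist, the RNA of the inactive X chromosome, stood at 5.77 to 10.0 FPKM in 5 libraries (all 4 of days 0 and 10, plus day 3 replicate 2), whereas the Y-linked gene Ddx3y was at 6.10 to 11.4 FPKM in the other 5 libraries, although the methods name male mice. The sex of the tissue therefore cannot be told apart from the day for days 1 and 5 against day 0. Values from a fit with an added term for Xist expression (chosen after seeing the data) are given where it changes a call. Only day 3 holds both states, so that term rests on its 2 libraries and cannot separate sex from day. With the term, day 3 against day 0 is in effect replicate 2 of day 3 alone against day 0.

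In regenerating muscle the readers formed a steep ladder of FPKM levels that kept its order at the top on every day. Hnrnpa2b1 stood highest at 56.1 to 90.1 FPKM over the 10 libraries, followed by Ythdf1 at 9.49 to 13.4, Ythdf3 at 7.62 to 9.21 and Ythdf2 at 4.55 to 7.04, and the ranges of these neighbours did not overlap. Below them Ythdc1 (1.71 to 2.40) lay above Ythdc2 (0.542 to 0.995) in all 10 libraries, and the range of Igf2bp2 (0.315 to 6.32) crossed both, so its place is not fixed. The order between genes depends on the length that FPKM divides by, here all merged exons. For Ythdc1 these span 13651 bases, against 3269 in its longest coding transcript, and for Hnrnpa2b1 6584 against 1728. On day 0 Ythdc1 had 409 and 367 reads, and Ythdf2 had 259 and 286. Igf2bp3 lay lower, at 0.131 to 0.312 FPKM, which is 16 to 40 reads, and Igf2bp1 had 1 read in 3 libraries and 0 in the other 7. Both IGF2BP1 and IGF2BP3 genes were thus near the limit of detection in muscle, and neither passed the filter of 0.5 FPKM in at least 2 libraries that the tests required. The other 7 readers were tested among 16753 genes.

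**Figure D1:**
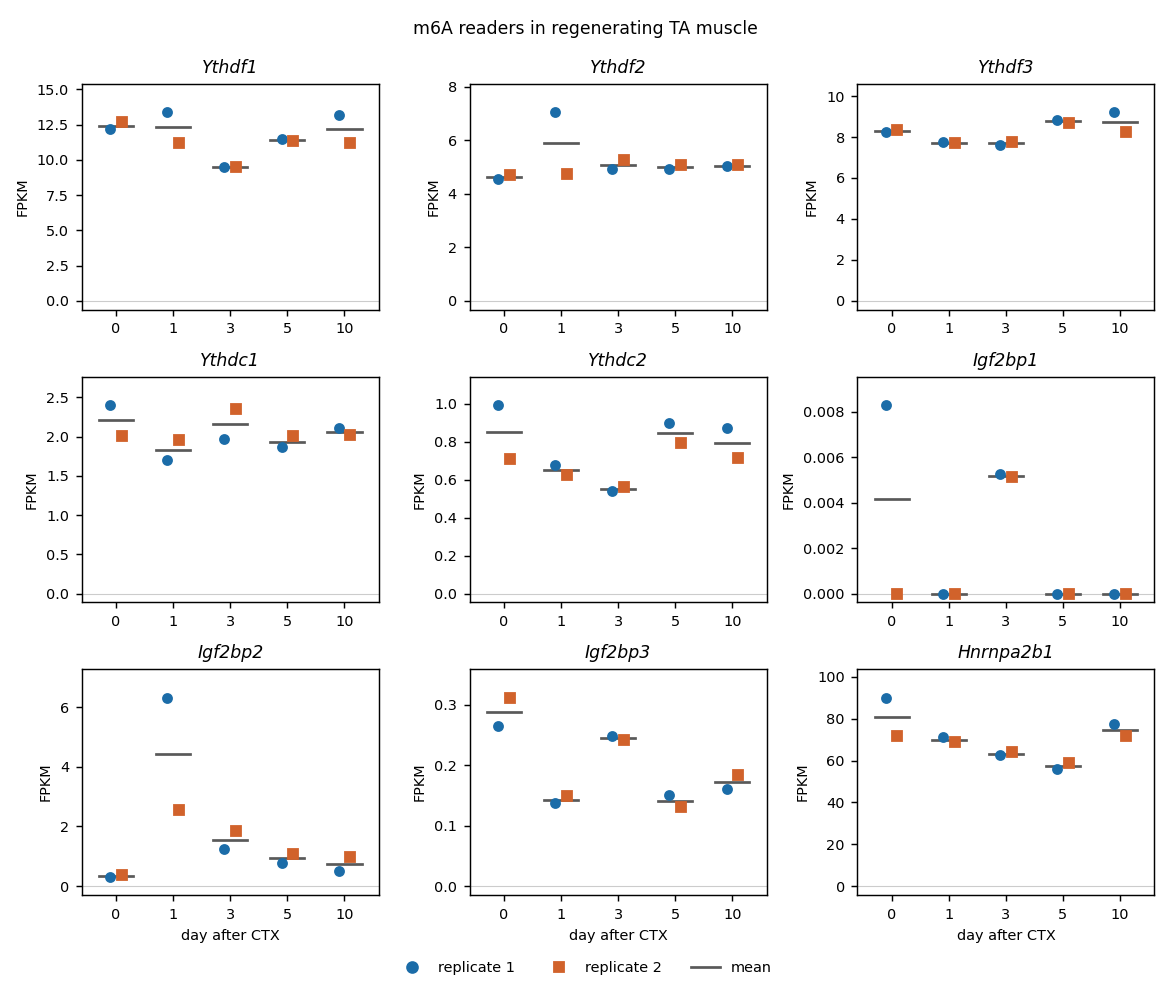
FPKM of each reader (y axis, from 0) by day after CTX (x axis), with a circle for replicate 1, a square for replicate 2 and a bar for their mean. Igf2bp2 climbs from 0.315 and 0.378 on day 0 to 6.32 and 2.56 on day 1 and then declines, while Hnrnpa2b1 falls to 56.1 and 59.0 on day 5.

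Igf2bp2 was the reader that changed most in regeneration, and on the deposited scale the sole member whose level varied over the 5 days by the test. It was nearly silent in day 0 muscle, stood 12.8 times higher in mean on day 1, and overlapped neither day 0 nor day 1 on day 10. The moderated F test of limma over the 5 days called Igf2bp2 (adjusted p = 0.00865) and none of the other 6 tested readers, in a table where it called 43.0% of all genes. That call held in all 20 alternative settings tried for this test. With scaling to total reads, however, the test called 5 readers, where 56.2% of all genes were called, so that Igf2bp2 stood alone depends on the scale.

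In single libraries, Igf2bp2 was at 0.315 and 0.378 FPKM on day 0, and at 6.32 and 2.56 on day 1. It was at 1.25 and 1.84 on day 3, at 0.792 and 1.10 on day 5, and at 0.504 and 0.973 on day 10. Every library after injury was above both libraries of day 0, and the day 1 libraries were the highest and also the farthest from each other. On the log2(FPKM + 0.1) scale, which understates the change of low genes, the difference between day 1 and day 0 was 3.21 (95% interval 2.15 to 4.28, adjusted p = 0.0204). Igf2bp2 was the only reader called in that comparison, where 6.0% of the tested genes were called. The call was lost when replicate 1 (adjusted p = 0.117) or 2 (0.0554) of day 0 was left out, and when replicate 1 of day 1 was (0.0899). It was lost as well in a fit of these days alone (0.183) and with the Xist term (0.396), settings in which 0 of the 16753 genes were called.

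On day 3 Igf2bp2 was 2.13 above day 0 with the Xist term, which here amounts to replicate 2 of day 3 alone and is no separate check. In the main fit it was still above day 0, by 1.86 (95% interval 0.80 to 2.93, adjusted p = 0.0120), and this difference was called. Dropping replicate 1 of day 0 (adjusted p = 0.0617) or replicate 2 of day 3 (0.0770) ended that call. Neither the day 5 difference of 1.21 from day 0 (adjusted p = 0.0880) nor that of 0.85 for day 10 (adjusted p = 0.565) passed the test, although the former did without either library of day 1 (adjusted p = 0.0427 and 0.0440). From day 1 to day 3 the difference was -1.35 (adjusted p = 0.0581), called with a pseudocount of 1 (adjusted p = 0.0420), with quantile normalization (0.0313) and once replicate 2 of day 1 was dropped (0.0216). From day 3 to day 10 it was -1.01 (adjusted p = 0.119). The last difference was called with scaling to total reads (-1.66, adjusted p = 0.0254).

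Igf2bp2 held the largest share of the IGF2BP transcripts on every day, and its share was highest on day 1. On day 0 Igf2bp2 made up 54.1% ± 0.9 (SD, n = 2) of the summed FPKM of the 3 IGF2BP genes and Igf2bp3 45.2% ± 0.1, at a sum of only 0.640 FPKM. On day 1 the share of Igf2bp2 was 96.2% ± 2.4 of a sum of 4.58 FPKM, and on day 10 it was 80.0% ± 5.8. Igf2bp3 itself was at 0.266 and 0.312 FPKM on day 0, then 0.137 and 0.149 on day 1, before reaching 0.248 and 0.242 on day 3. It was at 0.150 and 0.131 on day 5 and at 0.160 and 0.185 on day 10, so the libraries of days 1, 5 and 10 lay below those of days 0 and 3. Igf2bp3 is a weak measurement, since 18.7% of its exon bases lie under Malsu1 on the opposite strand, a gene at 2.79 to 8.82 FPKM, and whether the counting used strand is not given in the sources used here.

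Among protein-coding genes of at least 1 FPKM, the 3 whose log2 levels followed Igf2bp2 most closely over the 10 libraries were Pdpn (Pearson r = 0.980), Uck2 (0.973) and Sdf2l1 (0.968), out of 10441 compared. Pdpn encodes podoplanin, a membrane glycoprotein of stromal and lymphatic cells and of some macrophages, and it stood at 3.28 FPKM in mean on day 0 and 28.7 to 61.1 on day 1. Uck2, a uridine-cytidine kinase, went from 3.57 to between 11.3 and 29.0, and Sdf2l1, a chaperone cofactor of the endoplasmic reticulum, from 1.46 to between 14.8 and 33.2. With 10 libraries of 5 days that share the same injury, such correlations describe likeness in time and nothing more. Macrophage and monocyte marker genes (all 7 of them found) summed to 325 to 391.5 FPKM on day 1, above day 0 and below day 3, and neutrophil genes (5) to 10.1 to 19.2 against 1.58 to 5.11 on day 0, with Retnlg listed at 0 on both days. Proliferation genes summed to 20.2 to 32.1 on day 1 against 10.5 to 11.5, and myoblast and satellite cell genes to 917 to 1409 against 778 to 836. Muscle fibre genes were lower on day 1 (41107 to 45617), and the differentiating muscle, fibroadipogenic and endothelial lists overlapped day 0. In whole muscle, more cells of a type and more RNA per cell cannot be told apart, and the part of these cells in the rise of Igf2bp2 was not tested.

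The YTHDF readers moved little on the deposited scale. Ythdf1, the translation-linked reader and the most abundant of the 3, was at 12.2 and 12.6 FPKM on day 0, then 13.4 and 11.2 on day 1, followed by 9.49 and 9.51 on day 3. It returned to 11.5 and 11.4 on day 5 and to 13.2 and 11.2 on day 10. Day 3 was the lowest point, below every other library, with a difference of -0.38 from day 0 (95% interval -0.70 to -0.07, adjusted p = 0.0481) in a comparison that called 48.8% of all genes. This call was lost in 11 of 21 alternatives, among them leaving out any of the 4 libraries of the days compared (adjusted p = 0.126 to 0.155), and its direction turned with scaling to total reads.

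Ythdf2, the decay-promoting reader, was at 4.55 and 4.68 FPKM on day 0 and at 7.04 and 4.73 on day 1. On days 3, 5 and 10 it stayed between 4.93 and 5.24. Every library after injury was thus above both of day 0, but by a small margin apart from replicate 1 of day 1. The difference on day 1 was 0.32 (adjusted p = 0.315) and would be called only without replicate 2 of that day (0.60, adjusted p = 0.0392). Of the longest Ythdf2 coding transcript, 44.4% matches the processed pseudogenes Gm6823 and Gm8401 at 95% identity or more. Gm6823 was listed at 0 and Gm8401 at 0 to 0.0284 FPKM, and how reads that fit several places were counted is not given in the sources used here.

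Ythdf3, the partner of both, ranged from 7.62 to 9.21 FPKM, with day means that differed by 1.14 times at most. On the deposited scale it had no call in any of the 7 comparisons of days. After scaling to total reads Ythdf3 was called against day 0 on day 3 (0.71) and day 5 (0.47, adjusted p = 0.0282). It was also called from day 1 to day 3 (0.55) and from day 3 to day 10 (-0.53). Ythdf2 was then called on day 3 against day 0 (0.95, adjusted p = 0.00628), where the median of all genes was 0.79. In each library Ythdf1 supplied 42.3% to 49.2% of the YTHDF sum, Ythdf3 27.5% to 35.0% and Ythdf2 18.2% to 25.0%. The sum itself stayed between 22.0 and 28.2 FPKM. The make-up of the YTHDF pool was thus nearly level through the response, with the Ythdf1 share lowest on day 3 (42.7% ± 0.6) and highest on day 0 (49.0% ± 0.3).

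Of the YTHDC readers, Ythdc1, which acts in splicing and export, was at 2.40 and 2.01 FPKM on day 0, then 1.71 and 1.96 on day 1, followed by 1.97 and 2.35 on day 3. It was at 1.87 and 2.00 on day 5 and 2.11 and 2.02 on day 10, so days 3 and 10 overlapped day 0. Ythdc2, the helicase, was at 0.995 and 0.709 on day 0, then 0.676 and 0.626 on day 1, followed by 0.542 and 0.562 on day 3. It then stood at 0.899 and 0.794 on day 5 and 0.874 and 0.713 on day 10. Both libraries of day 3 lay below those of all other days, yet the difference of -0.53 from day 0 did not pass the test (adjusted p = 0.106); Ythdc2 had 73 to 139 reads per library. The genes most like Ythdc2 over the 10 libraries were Trappc12 (r = 0.961), Zfp956 (0.944) and Zkscan14 (0.938).

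Hnrnpa2b1, the most abundant reader, drifted down and came back on the deposited scale. It was at 90.1 and 72.0 FPKM on day 0, then 71.2 and 68.8 on day 1, followed by 62.7 and 63.9 on day 3. Its lowest values were 56.1 and 59.0 on day 5, and day 10 stood at 77.3 and 71.5. Days 1, 3 and 5 lay below both libraries of day 0, and day 10 overlapped it. The difference on day 5 was -0.48 (95% interval -0.80 to -0.17, adjusted p = 0.0385) where 25.5% of all genes were called, and that on day 3 was -0.35 (adjusted p = 0.0690). The day 5 difference was only -0.09 after scaling to total reads (adjusted p = 0.607) and -0.18 with quantile normalization (adjusted p = 0.250). The day 5 call was lost in 11 of 21 alternatives, among them leaving out replicate 1 of day 0 (adjusted p = 0.225), either library of day 5 (0.154 and 0.144) or the filter on low values (0.0582), and adding the Xist term (-0.46, adjusted p = 0.358). Over the 10 libraries Gm10382 (r = 0.976), Ubl5 (0.972), a ubiquitin-like splicing factor, and Txndc15 (0.968) were most like it.

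Beyond those 4 calls, no reader passed the test between day 10 and day 0, where limma called 1 gene (0.00597%) in all and 0 of the readers had an unadjusted p under 0.05. None was called from day 1 to day 3 (31.1% of genes called), from day 3 to day 5 (12.7%) or from day 3 to day 10 (37.9%), with 2, 0 and 1 readers at an unadjusted p under 0.05, as were 43.6%, 29.4% and 48.2% of all genes. Against day 0, 2 readers lay apart and higher on day 1 and 4 apart and lower, where 25.5% and 26.9% of all genes did. For day 3 these counts were 2 and 4 (38.9% and 39.1% of genes), for day 5 they were 3 and 3 (34.6% and 36.2%), and for day 10 they were 2 and 0 (19.2% and 20.4%). Non-overlap of 2 libraries with 2 is common in this table, and an exact permutation test of such groups cannot give a two-sided p below 0.333.

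The direction of several readers on day 3 depended on the scale. The deposited FPKM follow size factors, which centre the bulk of genes: scaling by the median ratio again left every reader's call as it was, and the median log2 difference of all genes from day 0 was between 0 and 0.01. Muscle RNA of day 0 is dominated by a few fibre genes, and 1 read was worth 1.35 and 1.21 times its plain per-million value there, against 0.726 and 0.706 times on day 3. When each library was instead scaled to its own reads on genes, a setting chosen after seeing the data, the median of all genes against day 0 moved to 0.24, 0.79, 0.36 and 0.11 for days 1, 3, 5 and 10. On day 3 Ythdf1 was then 0.44 above day 0 and Hnrnpa2b1 0.49 above it, both opposite in direction to the deposited scale, and 6 of 7 readers were called higher, where 52.4% of all genes were. Ythdf3 (0.71, adjusted p = 0.00182) and Ythdc1 (0.77, adjusted p = 0.00573) also changed sign from deposited-scale values of -0.11 and -0.03. Relative to that median Ythdf1 and Hnrnpa2b1 still lay at -0.34 and -0.30, close to their values on the deposited scale. Igf2bp2 was 3.40 above day 0 on day 1 (adjusted p = 0.0279), and for day 3 the value was 2.58 (adjusted p = 0.00345), so its rise on these days held on both scales. With quantile normalization Hnrnpa2b1 was 0.11 above day 0 on day 3 and Ythdc2 was called lower (-0.95, adjusted p = 0.0208).

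**Figure D2:**
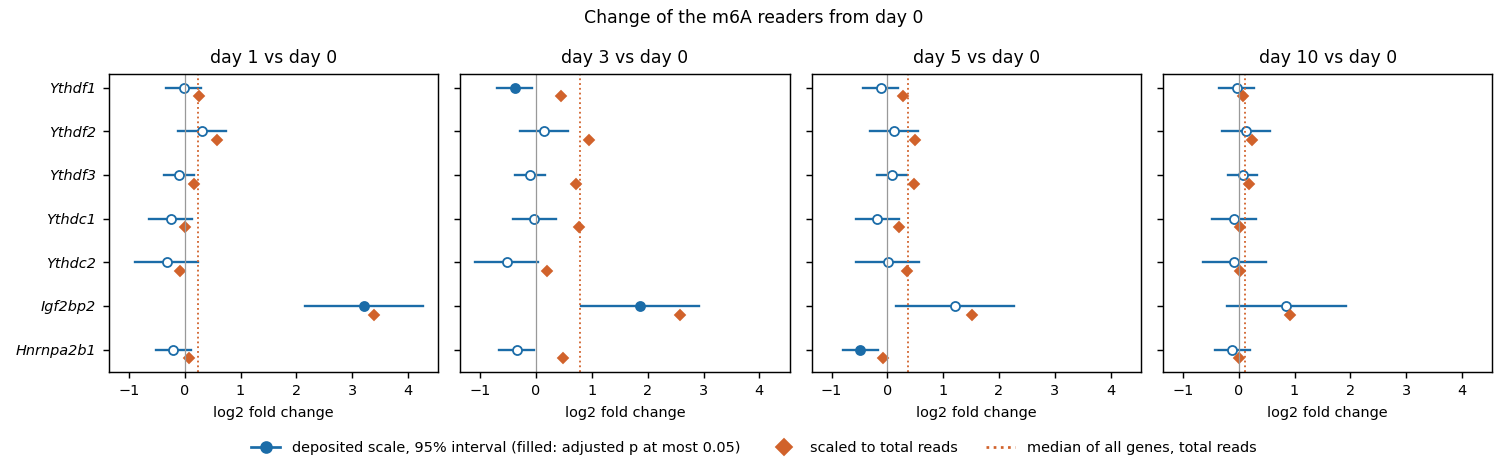
Log2 difference from day 0 (x axis) of the 7 tested readers on days 1, 3, 5 and 10; circles with 95% intervals are on the deposited scale and filled where the adjusted p is at most 0.05, diamonds are after scaling to total reads, and the dotted line is the median of all genes on that second scale. Igf2bp2 stands far to the right of the median on days 1 and 3 on either scale, while the other readers stay within 0.53 of 0 on the deposited scale.

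Other parts of the m6A pathway were set beside the readers; these lists were chosen with earlier results of the data known. On day 3, the day of most change, the writer complex (9 genes) had 2 members higher than day 0 and 1 lower, with a median of -0.20 against 0.01 for all genes, of which 48.8% were called in this comparison in either direction; that share is the background of each count for day 3 here. Rbm15b (0.81, adjusted p = 0.0132) and Virma (0.48, adjusted p = 0.0363), adaptors of the complex, rose, and Mettl14 (-0.65, adjusted p = 0.0193), the partner of METTL3, fell, though not with scaling to total reads (0.14). Mettl3 was at 4.04 to 4.68 FPKM on day 0 and 3.90 to 4.21 on day 3, a difference of -0.10 (adjusted p = 0.607), which was 0.71 and called with scaling to total reads. On day 5, when 25.5% of all genes were called, Mettl16 (-0.69) and Cbll1 (-0.64) were the writers called, both lower. On day 1 no writer was called.

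Of the 2 erasers, Alkbh5, an m6A demethylase, fell on day 3 (-1.18, adjusted p = 0.00237) and stayed lower 5 days after injury (-0.74, adjusted p = 0.0326). Fto was not called on any day against day 0 (-0.02 on day 3), though with scaling to total reads it was called higher on day 3 (0.80) and Alkbh5 was not called (-0.35). Among 11 other proteins reported to read m6A, 1 was higher on day 3 (Hnrnpc, 0.43) and 4 were lower, namely Lrpprc (-0.98), Fxr2 (-0.93), Fxr1 (-0.85) and G3bp2 (-0.63). Lrpprc, a mitochondrial RNA-binding protein, was lower on day 1 too (-0.83, adjusted p = 0.0237). Fxr2 (-0.69) and Fxr1 (-0.45), relatives of the fragile X protein, were the pair called lower on day 5. After scaling to total reads none of these 4 was called on day 3, and G3bp2 changed sign (0.20).

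The CCR4-NOT deadenylase, the machine that YTHDF2 recruits, had 2 of 13 genes higher and 5 lower on day 3, with a median of -0.24, against calls for 48.8% of all genes. The catalytic subunits Cnot6 (0.76, adjusted p = 0.0215) and Cnot6l (0.70, adjusted p = 0.00482) rose, while the catalytic subunit Cnot7 (-0.80, adjusted p = 0.00337) and the adaptor Tob1 (-1.10, adjusted p = 0.0348) fell. After scaling to total reads Cnot7 stood at 0.02 and Tob1 at -0.27, neither called. Cnot7 was the member called on day 5 (-0.68). Of 5 tested partners of YTHDC1 and YTHDC2, the 3'-end processing factor Cpsf6 rose (0.47) and the export factor Nxf1 fell (-0.41) on day 3, the latter with the opposite sign on total reads (0.42). In the hnRNP A/B and D family (6 genes), Hnrnpa0 (0.61, adjusted p = 0.0121) and Hnrnpa1 (0.56, adjusted p = 0.0104) rose on day 3 when Hnrnpa2b1 was at -0.35.

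In the list of known IGF2BP targets and let-7-linked oncofetal genes, 4 of 8 tested genes were higher on day 1 than on day 0, and this count was 5 for day 3 and 3 for day 5, with none lower. Of all tested genes, 6.0%, 48.8% and 25.5% were called on these days in either direction. The medians of the 8 were 1.40, 1.39 and 1.25 on the log2 scale, against 0 to 0.01 for all genes. On day 1 the genes called were Cd44 (2.61), a hyaluronan receptor, Myc (2.41), the growth regulator, Hmga1 (1.98), a chromatin protein, and Nras (0.96). On day 3 Igf2 (2.88, adjusted p = 0.00378), the growth factor whose mRNA gave the IGF2BP family its name, Cd44 (2.63, adjusted p = 0.0019), Actb (1.51, adjusted p = 0.00433), Nras (0.94, adjusted p = 0.00978) and Hmga2 were called. Igf2 (3.50), Cd44 (2.03) and Nras (1.10) were called on day 5, and all of these held their direction with scaling to total reads and with quantile normalization. Hmga2, which has 4 let-7 matches in its 3'UTR, was listed at 0 in both libraries of day 0, at 0.135 and 0.309 FPKM on day 1, and at 0.501 and 0.526 on day 3. Among these days it reached the filter of 0.5 FPKM only on day 3. Its call on day 3 and its place among the 5 thus partly follow from the filter. From day 3 to day 10, 4 of the 8 were lower and none higher, where 37.9% of all genes were called. By the same search the 3'UTRs of Igf2, Myc, Cd44 and Actb held 0 let-7 matches, and those of Hmga1 and Nras held 1 each. The genes of this list mark many processes of injured tissue, and the part of Igf2bp2 in their levels was not tested.

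In C2C12 cells the targeted gene behaved as the labels say. Mettl3 was at 4.70 and 5.65 FPKM in control GM cells, 4.68 and 5.15 in control DM3 cells, 0.331 and 0.118 in Cas9M3-GM cells and 0.148 and 0.0805 in Cas9M3-DM3 cells. The difference between Cas9M3 and control was -4.10 in GM and -4.56 on DM3. Only the latter was called (adjusted p = 0.0187), since in GM no gene at all passed the adjustment.

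The FPKM ladder of readers in myoblasts resembled that in muscle, with higher rungs for several members, and its order depends on the length divisor in the same way. Hnrnpa2b1 led at 56.8 to 91.4 FPKM over the 8 libraries, above all others. Ythdf1 (17.8 to 31.6), Ythdf3 (13.4 to 22.9) and Ythdf2 (9.30 to 22.9) followed with overlapping ranges, then Ythdc1 (2.99 to 5.61) above Ythdc2 (1.12 to 2.08), with Igf2bp2 (1.04 to 8.98) crossing both. Igf2bp1 reached at most 0.155 FPKM and Igf2bp3 at most 0.0388. The tables were scaled separately, so no fold is given between muscle and cells.

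**Figure D3:**
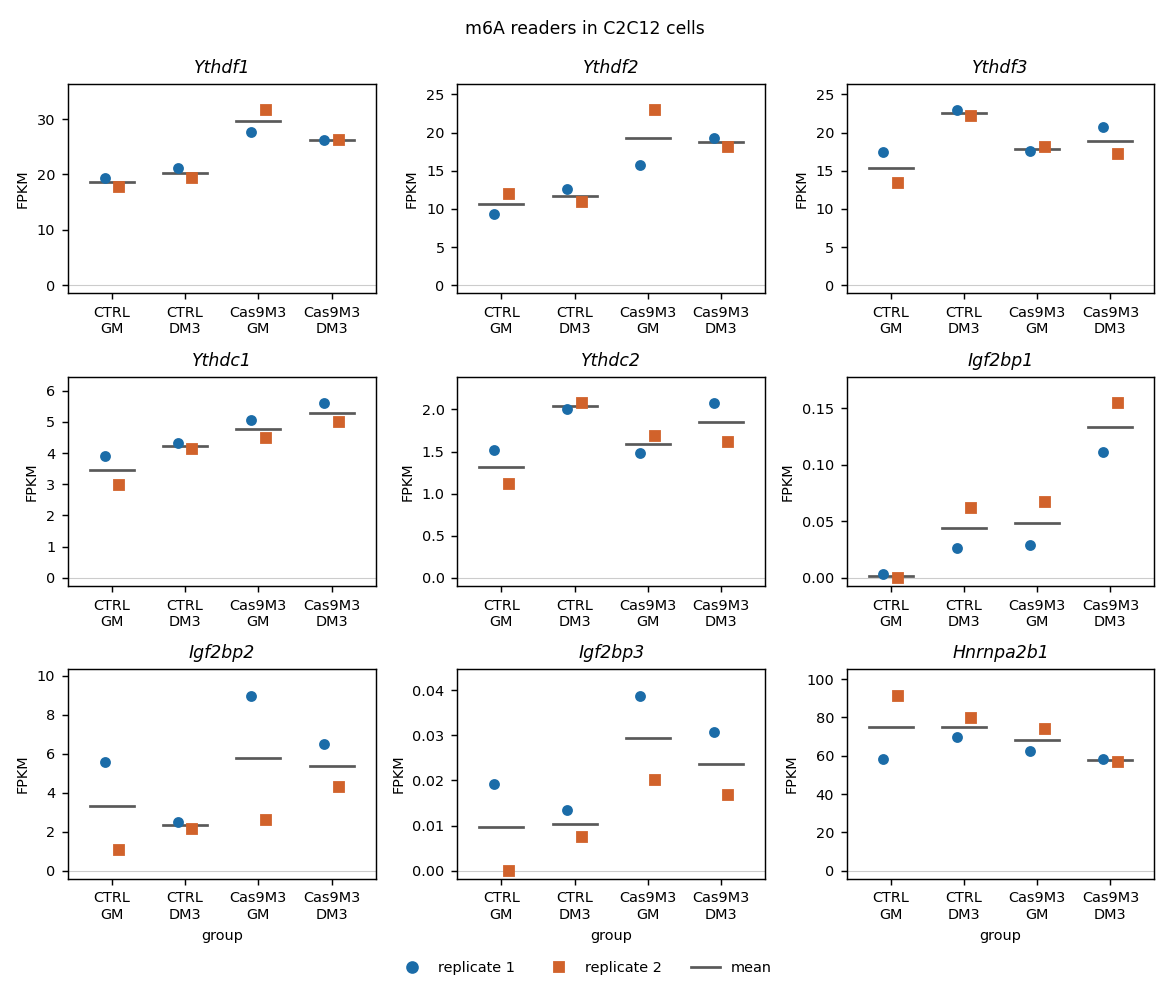
FPKM of each reader (y axis, from 0) in the 4 groups of C2C12 cells (x axis), with a circle for replicate 1, a square for replicate 2 and a bar for their mean. Ythdf1, Ythdf2 and Ythdc1 lie higher in both Cas9M3 groups than in both control groups, and Igf2bp2 is lower in replicate 2 than in replicate 1 of every group.

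Cells with suppressed Mettl3 had more Ythdf1, Ythdf2 and Ythdc1 mRNA in every library than any control library, in GM and on DM3. These differences did not pass the adjustment over all genes, and the share of all genes so separated over both media was not counted. Ythdf1 was at 19.4 and 17.8 FPKM in control GM cells against 27.6 and 31.6 in Cas9M3-GM cells. On DM3 it was at 21.1 and 19.4 against 26.2 and 26.3. The difference was 0.67 in GM (95% interval 0.28 to 1.05; limma, unadjusted p = 0.00513 and adjusted p = 0.358) and 0.37 on DM3 (95% interval -0.01 to 0.75, adjusted p = 0.306). Ythdf1 is thus the reader with the smallest unadjusted p in the knockdown, in a comparison where limma called 0 of 13824 genes and 1244 had an unadjusted p under 0.05.

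Ythdf2 was at 9.30 and 12 FPKM in control GM cells against 15.7 and 22.9 in Cas9M3-GM cells. On DM3 it was at 12.6 and 10.9 against 19.3 and 18.1. Its difference was 0.84 in GM (95% interval 0.26 to 1.42, adjusted p = 0.426) and 0.67 on DM3 (95% interval 0.09 to 1.25, adjusted p = 0.219). In a fit of the 2 DM3 groups alone the latter was called (adjusted p = 0.0280), as was Igf2bp2 (adjusted p = 0.0398), while 2637 genes were called in all. Ythdf3 differed less. It was at 17.5 and 13.4 against 17.6 and 18.1 in GM, and at 22.9 and 22.2 against 20.7 and 17.2 on DM3, above the controls in GM by 0.22 and below them on DM3 (-0.26), neither called.

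The make-up of the YTHDF pool differed accordingly between the groups. Ythdf3 made up 34.4% ± 4.8 of the YTHDF sum in control GM cells and 41.4% ± 1.2 in control DM3 cells, but 26.9% ± 2.8 and 29.6% ± 2.4 in the Cas9M3 cells. The share of Ythdf2 was 24.0% ± 5.4 and 21.5% ± 1.0 in the controls and 28.7% ± 4.1 and 29.3% ± 0.2 in the Cas9M3 cells (SD, n = 2 each). On DM3 the groups did not overlap in either share. The summed YTHDF level was 44.7 and 54.6 FPKM in mean in the controls and 66.7 and 63.9 in the Cas9M3 cells.

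Ythdc1 was at 3.92 and 2.99 FPKM in control GM cells and 5.05 and 4.49 in Cas9M3-GM cells, a difference of 0.46 (adjusted p = 0.578). On DM3 it was at 4.34 and 4.13 against 5.61 and 4.98, a difference of 0.31 (adjusted p = 0.536). Every Cas9M3 library was thus above every control library of both media, as for Ythdf1 and Ythdf2. Ythdc2 was at 1.52 and 1.12 against 1.48 and 1.69 in GM and at 2.00 and 2.07 against 2.08 and 1.62 on DM3, with overlap in both.

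Igf2bp2 varied widely between the replicates of the GM groups. It was at 5.56 and 1.04 FPKM in control GM cells, 8.98 and 2.59 in Cas9M3-GM cells, 2.49 and 2.15 in control DM3 cells and 6.52 and 4.27 in Cas9M3-DM3 cells. Replicate 2 was the lower in all 4 groups, and it was also the library with fewer reads on genes in each. The knockdown difference was 0.96 in GM (95% interval -1.10 to 3.03) and 1.16 on DM3 (95% interval -0.91 to 3.22), and the GM value changed sign without replicate 2 of the control (-0.19). Within each replicate number Cas9M3 was above control in both media, and with the replicate number as a block the interval on DM3 had a standard error of 0.53 in place of 0.85 (adjusted p = 0.273).

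The fetal IGF2BP genes were at the edge of detection. Igf2bp1 had 1 and 0 reads in control GM cells and 9 and 12 in Cas9M3-GM cells, and 7 and 10 reads in control DM3 cells against 30 and 22 in Cas9M3-DM3 cells. In FPKM the last pair stood at 0.111 and 0.155, against 0.0264 and 0.0621 in control DM3 cells. Each Cas9M3 library was above each control library of the same medium, but these levels lie under the filter, and no test was made. Igf2bp3 had 0 to 10 reads in all 8 libraries.

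Hnrnpa2b1 was at 58.2 and 91.4 FPKM in control GM cells and 62.5 and 74.1 in Cas9M3-GM cells, with overlap. On DM3 it was at 69.9 and 79.8 in controls and 58.6 and 56.8 in Cas9M3 cells, a difference of -0.37 (95% interval -0.99 to 0.24, adjusted p = 0.556). The 6 genes of the hnRNP A/B and D family were all below 0 in that comparison, with a median of -0.33 and none called. The median of all genes there was -0.05, and the share of all genes below 0 was not counted. Proliferation markers (6 genes) summed to 100.1 to 103.6 FPKM in control DM3 cells and 48.5 to 50.2 in Cas9M3-DM3 cells, and the part of this in the values of Hnrnpa2b1 was not tested.

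Counted over all tested readers, 0 of 7 were called between Cas9M3 and control in GM, where 0% of all genes were called, and 0 of 7 on DM3, where 1.98% were called. The libraries of 4 readers were apart and higher in Cas9M3 cells in GM (Ythdf1, Ythdf2, Ythdf3 and Ythdc1), against 15.6% of all genes, and none was apart and lower (13.8%). On DM3 4 were apart and higher (Ythdf1, Ythdf2, Ythdc1 and Igf2bp2) and 2 lower (Ythdf3 and Hnrnpa2b1), against 29.3% and 34.2% of all genes. The median difference of the 7 readers was 0.46 in GM and 0.31 on DM3, where that of all genes was -0.01 and -0.05. The effect of the knockdown did not differ between DM3 and GM by the test for any reader or for any of the 13824 genes; 0 readers and 1198 genes had an unadjusted p under 0.05. Among the Ythdf genes the largest such difference was that of Ythdf3, -0.48 (95% interval -1.14 to 0.18, adjusted p = 0.678).

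**Figure D4:**
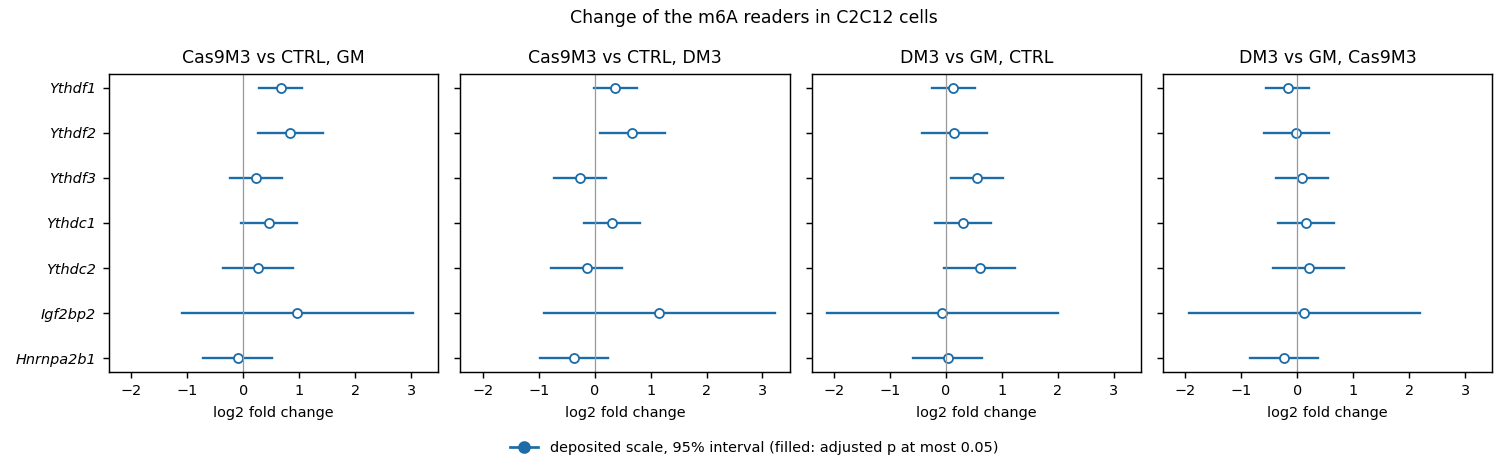
Log2 difference (x axis) of the 7 tested readers for Cas9M3 against CTRL in GM and on DM3, and for DM3 against GM in CTRL and in Cas9M3 cells; circles are estimates, open because no adjusted p is at most 0.05, and lines are 95% intervals. Ythdf1, Ythdf2, Ythdc1 and Igf2bp2 lie to the right of 0 in both knockdown panels, and Igf2bp2 has the widest intervals.

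Differentiation of control cells was accompanied by small differences of the readers. Ythdf3 went from 17.5 and 13.4 FPKM in GM to 22.9 and 22.2 on DM3 (0.56, 95% interval 0.09 to 1.03, adjusted p = 0.217), and Ythdc2 from 1.52 and 1.12 to 2.00 and 2.07 (0.60, 95% interval -0.03 to 1.24, adjusted p = 0.288). Both groups were apart for these genes, as they were for Ythdf1 and Ythdc1, so that 4 of 7 readers were apart and higher on DM3, against 24.8% of all genes, and none was apart and lower (22.4%). None was called, where 1.14% of genes were, and Ythdf3 would be called only without replicate 1 of control GM (0.75, adjusted p = 0.0345). In Cas9M3 cells no reader was apart and higher on DM3 (23.9% of all genes), and Ythdf1 and Hnrnpa2b1 were apart and lower, against 24.1% of all genes. None was called, where 0.0289% were. The summed differentiation genes of Cas9M3 cells were at 0.971 to 27.0 FPKM in GM and at 6.69 to 9.35 on DM3. For these cells the comparison is therefore one of media and cannot be read as differentiation.

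The rest of the m6A pathway showed the same lack of calls in C2C12 cells. Over the writers, erasers, other readers, CCR4-NOT genes, YTHDC partners, IGF2BP targets and hnRNP family, the calls were Mettl3 itself on DM3 and Myc, which was lower on DM3 than in GM in control cells (-1.07, adjusted p = 0.0394). All 11 of the other reported readers and all 5 tested YTHDC partners lay below 0 on DM3 in Cas9M3 cells against controls, with medians of -0.26 and -0.21, and none of them was called. The median of all genes there was -0.05, and the share of all genes below 0 was not counted. These lists were chosen with earlier results of the data known.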

How the data were processed

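TA muscle (10 libraries) and C2C12 cells (8) were sequenced as RNA; 8 libraries of other cells were not analysed here. Per the labels and methods, HISAT2 alignments to GRCm38 were counted by featureCounts and the authors deposited FPKM from the fpkm function of DESeq2; versions and strand setting are not given in the sources used here. From the deposited FPKM, log2(FPKM + 0.1) of all groups of a table entered 1 limma (3.58.1) fit, lmFit and eBayes with a trend, over genes at 0.5 FPKM or more in at least 2 libraries; p-values are two-sided, adjusted by Benjamini-Hochberg over all tested genes and called at 0.05. The tables were scaled separately, so comparisons stayed within a table. FPKM values worth at most 20 reads came out whole for 96.8% to 97.6% (TA) and 98.7% to 98.9% (C2C12) of values, within 0.02 read at 1 read and more by the square root above it; the reads implied for Igf2bp2 in TA (29.1 to 669.5) were not all whole. The members and lists were chosen with earlier results of these data known; named pathway genes are those called with the largest change in each list, at most 4; Hnrnpc and Nras on day 3, and Myc in C2C12 cells, were named after their values were seen. Same-numbered C2C12 libraries deviated together (correlations 0.278 to 0.680), which no source explains, and those of muscle did not (-0.019 to 0.211). Replicate 2 held fewer reads on genes than replicate 1 in every C2C12 group (14230000 to 18900000 against 25170000 to 29570000). Replicate number and depth therefore cannot be told apart. In replicate 2 of control GM 1 read was worth 1.47 times its per-million value, against 0.903 to 1.03 times in the other C2C12 libraries. In simulated data for day 1 against day 0, 56 of 200 genes changed by 1 on the log2 scale were called and 172 changed by 2. For Cas9M3 against CTRL in GM these counts were 0 and 112. The simulation drew independent noise for each library, changed only genes with a mean log2 level above 1 and left all other genes unchanged. It thus lacks the shared deviation of same-numbered C2C12 libraries and does not cover low genes. Alternatives were the pseudocount, filter, normalization, trend, groups fitted, replicate block and each library left out. Sequences were read from RefSeq (let-7) and GENCODE M21 (sites).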

Additional observations from a re-analysis of the deposited data

How the results depend on the processing

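The count of readers called changed most with scaling to total reads, chosen after seeing the data: 6 on day 3 against day 0, 3 on day 3 against day 1, 2 on day 5 against day 3, 5 on day 10 against day 3 and 5 over all days, where 61.1%, 40.4%, 25.3%, 54.3% and 56.2% of all genes were called. On that scale Ythdf1 (0.44), Ythdf3 (0.71), Ythdc1 (0.77), Ythdc2 (0.20) and Hnrnpa2b1 (0.49) reversed on day 3 against day 0, where the median of all genes moved to 0.79; quantile normalization reversed Hnrnpa2b1 there (0.11). On day 1 against day 0, 0 readers were called with the Xist term (also chosen after seeing the data) or in a fit of only those groups. On day 3 the count was 1 with a pseudocount of 1, no filter, no trend or the Xist term, and 0 with a log2 change of at least 2 required. On day 5 it was 0 with no filter, quantile normalization, no trend, the Xist term, only those groups, or that fold limit. From day 1 to day 3 it was 1 with a pseudocount of 1 or quantile normalization, from day 3 to day 10 it was 1 with quantile normalization, and between Cas9M3 and CTRL on DM3 it was 2 in a fit of only those groups; the cause was not tested.

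Leaving out single libraries gave 0 to 2 readers on day 1, 0 to 2 on day 3 and 0 to 2 on day 5, 0 to 3 from day 1 to day 3, and 0 to 1 for DM3 against GM in CTRL cells; without replicate 2 of control GM, Igf2bp2 reversed in the knockdown in GM (its difference ranged from -0.19 to 2.12). The replicate block changed no reader's call: with it 0 readers were called in C2C12 cells, while the genes called went from 158 to 411 for DM3 against GM in CTRL cells, from 4 to 9 in Cas9M3 cells and from 274 to 505 for Cas9M3 against CTRL on DM3. With 2 libraries per group, simulated differences of 1 on the log2 scale were called for 0 of 200 genes for Cas9M3 against CTRL in GM. That simulation had independent noise in each library, unlike the C2C12 data.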
